A study of Homo sapiens with 46 samples.

Results

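Cells whose lamin B1 can be degraded on demand were compared with untagged cells given the same drug, to separate the transcripts that answered auxin alone from those that answered differently in the lamin B1 line. The comparison is a difference of responses: the change from 0 to 96 h of auxin in the AID-Lamin B1 line (LB1) minus the same change in parental cells. It uses 15 of the 46 RNA-seq libraries of the series: 4 of parental cells at 0 h, 4 of parental cells at 96 h, 3 of LB1 cells at 0 h and 4 of LB1 cells at 96 h. The cells were DLD-1, a human line from a colorectal adenocarcinoma. The parental cells carried no tag. In the LB1 cells the endogenous lamin B1 gene carries an auxin-inducible degron (AID) at the N-terminus of the protein. The 96 h cells of both lines received 1 mM auxin dissolved in DMSO, and the labels do not say whether the 0 h cells received DMSO. Matching lines carry the tag on lamin A/C (LAC) and lamin B2 (LB2), and all 4 lines were also sampled at 16 h. A replicate was 1 well of a 6-well plate, so the p-values below measure only the spread between wells. Whether each tagged line is a single clone is not given in the sources used here. With 1 line for each tag, the tagged protein and the history of the line cannot be told apart.

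Lamins are intermediate filament proteins that form a meshwork under the inner nuclear membrane. A-type lamins come from LMNA, and B-type lamins, which stay attached to the membrane through a lipid, come from LMNB1 and LMNB2. The meshwork carries mechanical load, anchors membrane proteins such as LAP2 (gene TMPO) and emerin, and touches large, mostly silent stretches of chromatin. A degron line also needs the plant F-box protein TIR1, which brings the tagged protein to the cell's own ubiquitin ligase once auxin is present. Treating untagged cells shows which transcripts answer auxin without any degron.

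Library depth ran from 1452968 counts in LB1 0 h replicate 2 to 19352004 in LB1 0 h replicate 1. The other library under 5000000 counts was parental 0 h replicate 4, with 3770140. Epithelial keratin and adhesion genes were abundant in all 15 libraries (KRT8 between 2791 and 6007 CPM, counts scaled to 1000000 per library; EPCAM between 321 and 540.0 CPM), while CDX1, LGALS4 and GPA33 of the same marker list were near or at 0 and VIL1 stayed between 0.299 and 3.97 CPM. Fibroblast markers summed to 0.892 to 4.02 CPM per library, with COL1A2, DCN and PDGFRA at 0 throughout. Blood and endothelial markers summed to 2.89 to 13.8 CPM, mostly from VWF, with HBB at 0; their sum was 2.89 to 4.56 CPM in LB1 at 96 h and 5.89 to 11.3 CPM in LB1 at 0 h. Transcripts of the mitochondrial genome made up 1.27% ± 0.225 of counts in parental cells at 0 h and 1.62% ± 0.777 after 96 h (n = 4 libraries in both, SD), against 1.55% ± 0.0482 (n = 3) and 2.63% ± 0.444 (n = 4) in LB1. The part of this share in the results below was not tested. In bulk libraries such as these, fewer cells of a kind and less RNA per cell cannot be told apart.

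LMNB1, the tagged gene, was lower in the LB1 line before and after auxin, and the difference of responses was not called. LMNB1 (ENSG00000113368.12, chromosome 5, 126776623 to 126837020, plus strand, GRCh38) was at 156, 149, 149 and 135 CPM in the 4 parental libraries at 0 h and at 172, 206, 177 and 176 CPM at 96 h. In LB1, LMNB1 was at 100.2, 97.6 and 86.4 CPM at 0 h and at 84.7, 77.7, 84.1 and 99.5 CPM at 96 h. Every LB1 library lay below every parental library, and the 0 and 96 h libraries of LB1 overlapped. The line difference was -0.64 ± 0.16 on the log2 scale at 0 h (SE, adjusted p = 0.0115) and -1.08 ± 0.15 at 96 h (adjusted p = 3.05e-07), whereas the difference of responses was -0.44 ± 0.22 (adjusted p = 0.294). All adjusted p-values come from edgeR's quasi-likelihood test with Benjamini-Hochberg adjustment over the 21484 genes tested, and a gene is called at an adjusted p under 0.05. The degron removes protein, which was not measured in these libraries, so the transcript does not check the depletion.

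The difference of responses was not called for the other lamins or for TMPO. LMNA was at 794, 615, 862 and 680.0 CPM in parental cells at 0 h and 485, 758, 516 and 519 CPM at 96 h. In LB1, LMNA was at 599, 850.3 and 778 CPM at 0 h and 258, 276, 345 and 368 CPM at 96 h. All 4 LB1 libraries at 96 h lay below the other 11, and LMNA fell within LB1 (-1.25 ± 0.28, adjusted p = 0.00359). Parental replicate 2 at 96 h, with 758 CPM, stood far above its group. The difference of responses was -0.88 ± 0.38 (adjusted p = 0.225). LMNB2 differed by -0.96 ± 0.30 (adjusted p = 0.101). It stood at 365, 475, 404 and 413 CPM in parental cells at 96 h, above all parental 0 h libraries. In LB1 at 96 h it stood at 184, 189.8, 246 and 292 CPM. TMPO differed by -0.41 ± 0.22 (adjusted p = 0.344). LMNA was called in 3 and LMNB2 in 5 of 25 alternative analyses, all with the same sign. None of the 8 tested genes of the list of lamins and lamin processing enzymes was called, and their median difference was -0.47, against 0.03 over all genes tested and -0.12 over the protein-coding genes, the kind most lists here hold.

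**Figure D1:**
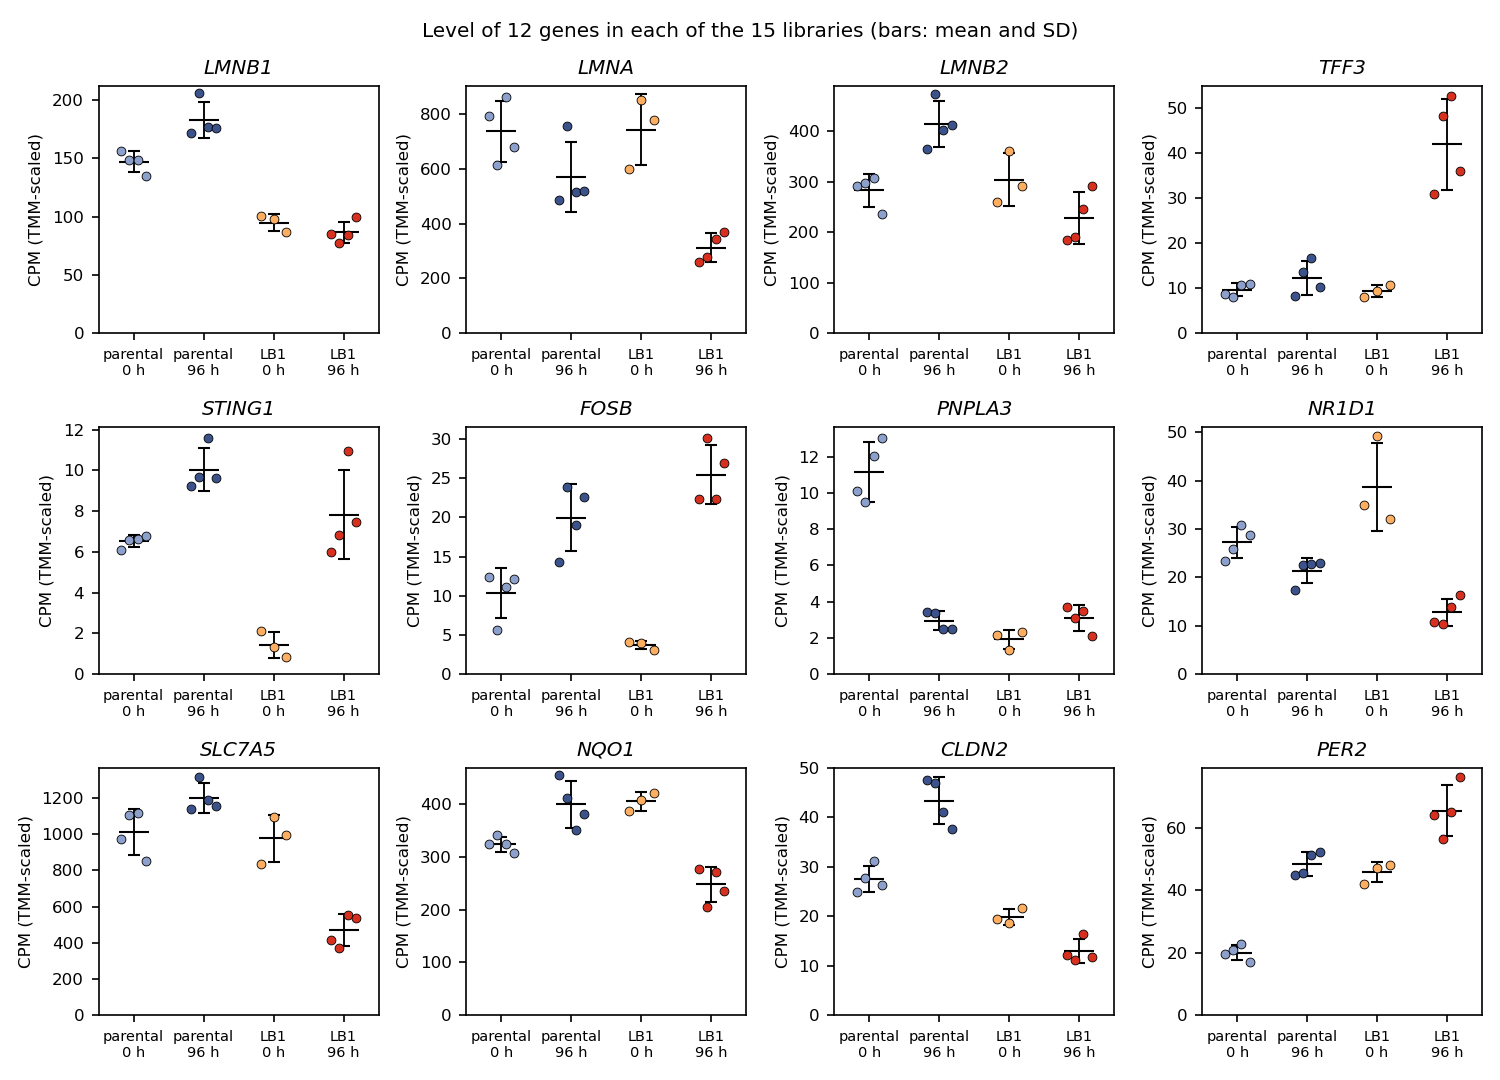
Expression in CPM (linear axis from 0) of 12 genes in each of the 15 libraries; points are libraries, and bars are the mean and SD of parental 0 h (n = 4), parental 96 h (n = 4), LB1 0 h (n = 3) and LB1 96 h (n = 4). TFF3 lay between 30.9 and 52.7 CPM in LB1 at 96 h and at or under 16.8 CPM in the other 11 libraries, while SLC7A5 in LB1 at 96 h was at or under 551 CPM, below all other libraries.

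At 96 h the LB1 response differed from the parental response in 224 of 21484 genes (1.04%), 156 higher (0.726%) and 68 lower (0.317%). In the same fit 3570 genes had an unadjusted p under 0.05. Within each line, 682 genes were called between 0 and 96 h in LB1 (3.17%) and 1671 in parental cells (7.78%). These contrasts share their libraries with the difference of responses and are given only beside it. At 0 h, before any auxin, the lines already differed in 870 genes (4.05%), and at 96 h they differed in 3673 (17.1%). At 16 h the corresponding difference of responses was called in 6 genes (0.0279%), with 1340 at an unadjusted p under 0.05. The 6 were 1 without LB1 0 h replicate 1 and 9 without LB1 0 h replicate 2. Of the 6 genes, 1 was also called at 96 h, the hair keratin-associated KRTAP3-1, with 3.09 at 16 h and 2.24 at 96 h.

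A higher call at 96 h was more often a fall in parental cells than a rise in LB1. Of the 156 genes, 112 fell in parental cells with no call in LB1, 20 rose in LB1 with no call in parental cells, 6 rose in LB1 and fell in parental cells, 1 rose in both, and 17 were called in neither line alone. Of the 68 lower calls, 29 fell in LB1 only, 29 rose in parental cells only, 2 fell in LB1 and rose in parental cells, 3 fell in both, 1 rose in both and 4 were called in neither. The median higher call combined 0.66 in LB1 with -1.08 in parental cells, and the median lower call -0.58 with 0.40. The lines were further apart at 96 h than at 0 h for 108 of the 156 higher and 48 of the 68 lower calls, and closer together at 96 h for the other 48 and 20. The counts leaned on single libraries. Leaving out 1 library gave 91 (parental 0 h replicate 1), 90 (parental 0 h replicate 4), 61 (parental 96 h replicate 2), 53 (LB1 0 h replicate 2), 41 (LB1 0 h replicate 3), 138 (LB1 96 h replicate 1), 46 (LB1 96 h replicate 2) or 356 (LB1 96 h replicate 4) calls in place of 224. The share of higher calls, 69.6%, was 80.3% (245 of 305) with RLE scaling factors and 90.7% (331 of 365) with library size alone. It fell to 40.3% (149 higher, 221 lower) without the libraries under 5000000 counts, to 47.6% with limma's voom and to 49.4% in a fit of the compared groups alone, so the direction with more calls differed between settings. The RLE and library size scalings moved the median difference of all genes from 0.03 to 0.13 and 0.21.

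**Figure D2:**
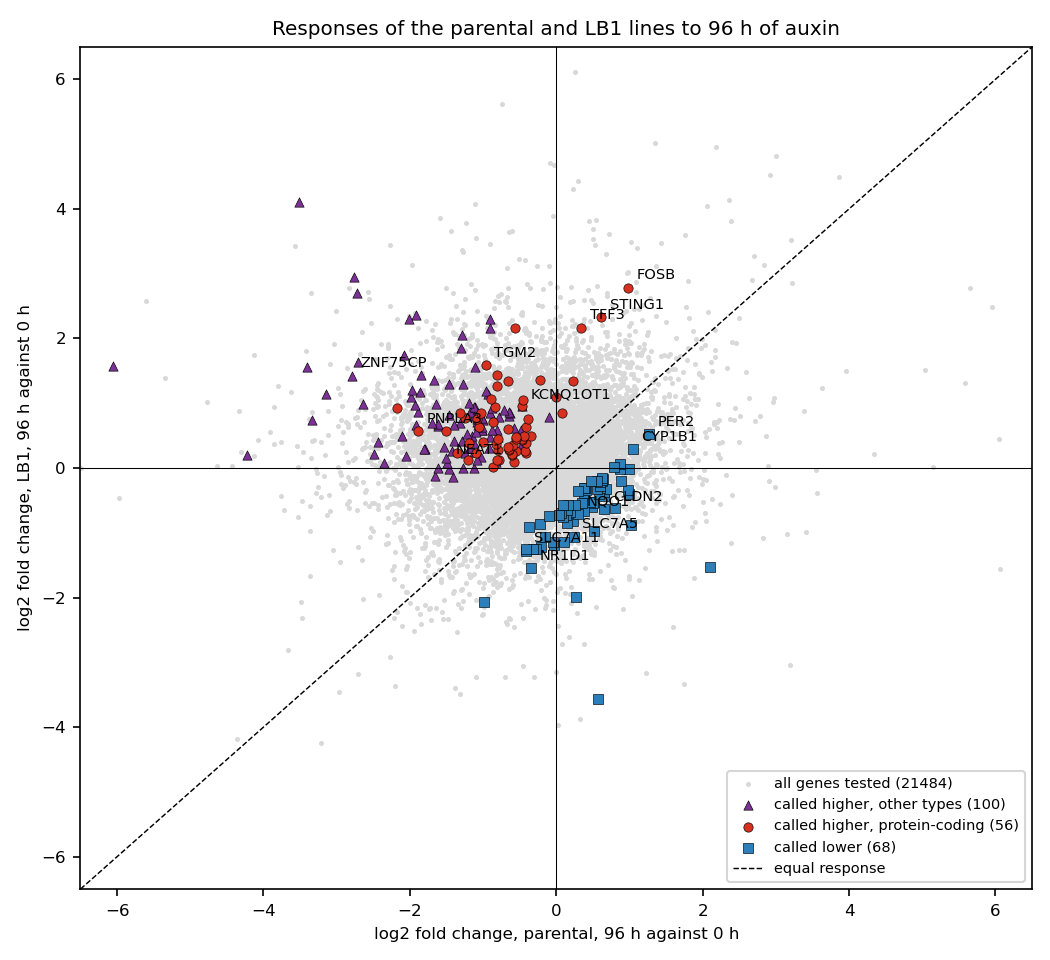
Log2 change from 0 to 96 h in parental cells (x axis) against that in LB1 (y axis) for the 21484 genes tested (grey). Purple triangles are the 100 higher calls not listed as protein-coding, 15 of them without a known type. Red circles are the 56 protein-coding higher calls and blue squares the 68 lower calls, with the dashed line marking equal responses. Most triangles and circles sit left of 0 on the parental axis with LB1 values near or above 0; a few grey points lie beyond the axes.

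Among protein-coding genes with a larger response in LB1, TFF3 was called through a rise in LB1. It encodes a trefoil peptide secreted with mucus by goblet cells. TFF3 (ENSG00000160180.17, chromosome 21, 42311667 to 42315409, minus strand) was at 8.65, 8.09, 10.8 and 10.9 CPM in parental cells at 0 h and 8.17, 13.7, 16.8 and 10.2 CPM at 96 h. In LB1, TFF3 went from 8.08, 9.29 and 10.8 CPM to 30.9, 48.2, 52.7 and 36.1 CPM. The 4 LB1 libraries at 96 h stood above the other 11, which overlapped one another. The difference of responses was 1.82 ± 0.31 (adjusted p = 0.00208), made of a rise in LB1 (2.17 ± 0.23) and no call in parental cells (0.34 ± 0.21), and it kept its call in all 25 alternatives tried. AGR2, an endoplasmic reticulum protein that helps fold mucins, was the other called member of the list of goblet and secretory genes and went the opposite way. It was at 335, 367, 362 and 343 CPM in parental cells at 0 h and 606, 487, 562 and 549.9 CPM at 96 h. In LB1, AGR2 was at 705, 696 and 841 then 606, 514, 596 and 491 CPM. AGR2 rose in parental cells to the level at which LB1 ended, while LB1 at 0 h lay above every parental library. The difference of responses was -1.09 ± 0.26 (adjusted p = 0.0303). AGR2 lost its call without parental 0 h replicates 1 and 4, parental 96 h replicate 1, LB1 0 h replicates 2 and 3 or LB1 96 h replicates 2 and 4 (log2 differences -0.94 to -1.15, adjusted p up to 0.127), and also with library size alone or protein-coding genes alone. Here and below, 1 library was left out at a time, and another setting is named where it lost the call. Losses in a fit with the replicate number as a block are instead listed in the closing paragraph. Of the 14 tested genes in the list, 1 was called higher and 1 lower, with a median of -0.15. Beside this and each later list stand the shares of protein-coding genes tested, 0.408% called higher and 0.488% lower. These shares were not matched for expression level. Genes called lower had a median level of 80.56 CPM, against 6.892 CPM for genes called higher and 6.197 CPM over all genes tested. Lists of abundant genes are therefore not set against genes of like level, and the part of level in their counts was not tested.

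STING1 and FOSB were also called higher, each from a lower starting level in LB1. STING1 (ENSG00000184584.14, chromosome 5, 139475533 to 139482935, minus strand), the membrane adaptor that relays the sensing of cytosolic DNA, was at 6.09, 6.60, 6.64 and 6.77 CPM in parental cells at 0 h and 9.23, 9.67, 11.6 and 9.65 CPM at 96 h. In LB1, STING1 was at 2.13, 1.33 and 0.828 CPM at 0 h and 6.01, 6.85, 11.0 and 7.48 CPM at 96 h, so LB1 began below the parental range and ended overlapping it. The difference of responses was 1.72 ± 0.37 (adjusted p = 0.0123). STING1 lost its call without LB1 0 h replicate 3 (log2 difference 1.35, adjusted p = 0.128). STING1 was the 1 call among 12 tested genes of cytosolic nucleic acid sensing (median -0.01), and none of 35 interferon-stimulated genes was called (median -0.02). FOSB (ENSG00000125740.14, chromosome 19, 45467995 to 45475179, plus strand), an AP-1 subunit that is transcribed within minutes of many stimuli, was at 12.4, 5.61, 11.1 and 12.1 CPM in parental cells at 0 h and 14.3, 23.8, 19.1 and 22.6 CPM at 96 h. In LB1, FOSB was at 4.07, 3.98 and 3.13 and then 22.3, 30.2, 22.4 and 26.9 CPM. FOSB rose in both lines and by more in LB1 (2.78 against 0.99), with a difference of 1.80 ± 0.43 (adjusted p = 0.0294). FOSB lost its call without parental 0 h replicates 1 and 4, parental 96 h replicate 1, LB1 0 h replicates 1, 2 and 3 or LB1 96 h replicate 2 (log2 differences 1.61 to 1.95, adjusted p up to 0.137). It was the only call among 30 immediate early genes, whose median difference was -0.17.

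PNPLA3, a lipid droplet enzyme, was called higher through a fall in parental cells. PNPLA3 (ENSG00000100344.11, chromosome 22, 43923792 to 43964488, plus strand) went from 10.1, 9.49, 12.0 and 13.0 CPM to 3.43, 3.39, 2.50 and 2.48 CPM in parental cells. In LB1, PNPLA3 went from 2.13, 1.33 and 2.30 CPM to 3.72, 3.11, 3.46 and 2.09 CPM. The parental 96 h libraries came down to the range that LB1 occupied at both times. The difference of 2.45 ± 0.39 (adjusted p = 0.000616) kept its call in all 25 alternatives, and the lines converged. SEMA5A, a transmembrane semaphorin chosen here after its values were seen, rose in LB1 from 21.6, 27.2 and 21.3 CPM to 48.9, 52.6, 66.0 and 61.9 CPM. In parental cells it lay between 131 and 190.4 CPM at both times. The difference was 1.11 ± 0.20 (adjusted p = 0.00336) and kept its call in all 25 alternatives, while every LB1 library stayed below every parental one. TGM2, a protein-crosslinking transglutaminase, differed by 2.55 ± 0.62 (adjusted p = 0.0306) at low levels. In parental cells 4.26, 4.70, 5.20 and 6.52 CPM fell to 2.21, 2.79, 3.57 and 2.11 CPM. LB1 was at 0.397, 0 and 0.276 CPM and then 0.532, 0.778, 1.6 and 0.997 CPM. A count of 0 in LB1 0 h replicate 2, the shallowest library, allows up to 1.99 CPM. GPR21, an orphan receptor whose gene lies inside RABGAP1 on the same strand, differed by 3.10 ± 0.77 (adjusted p = 0.0336), and C9orf131 by 2.72 ± 0.65 (adjusted p = 0.0257), both below 8 CPM in all 15 libraries. C9orf131 was at 0.942, 0 and 0.552 CPM in LB1 at 0 h, so the same limit of 1.99 CPM holds for its 0 in replicate 2. TGM2 lost its call without parental 0 h replicate 4, parental 96 h replicate 2, LB1 0 h replicates 1, 2 and 3 or LB1 96 h replicates 2 and 3 (log2 differences 2.13 to 3.00, adjusted p up to 0.131). GPR21 lost its call without parental 0 h replicates 1 and 4, parental 96 h replicate 2, LB1 0 h replicates 1, 2 and 3 or LB1 96 h replicate 2 (log2 differences 2.59 to 3.45, adjusted p up to 0.107). C9orf131 lost its call without parental 0 h replicate 4, LB1 0 h replicates 2 and 3 or LB1 96 h replicate 2 (log2 differences 2.40 to 2.61, adjusted p up to 0.124).

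Of the 156 higher calls, 56 were protein-coding, 29 antisense, 18 lincRNA (long intergenic noncoding RNA), 15 pseudogenes, 23 of other noncoding types and 15 not in the annotation release that gave the types, whereas 67 of the 68 lower calls were protein-coding. Protein-coding genes were 63.9% of all genes tested. Higher calls made up 0.408% of protein-coding genes tested, 1.43% of antisense genes, 1.44% of lincRNAs and 1.5% of other noncoding genes. For pseudogenes the figure was 0.783%, near the 0.726% of all genes tested. Genes not in the annotation release stood at 1.46%. Lower calls made up 0.488% of protein-coding genes tested. The median difference was 0.88 over pseudogenes, 0.77 over other noncoding genes, 0.69 over antisense genes and 0.49 over lincRNAs, against -0.12 over protein-coding genes. With library size alone the protein-coding median was 0.06, so its sign depended on the scaling. Which kind made up most of the higher calls depended on the setting: 241 of 443 were protein-coding once the GC and length trend was removed, 18 of 31 without LB1 96 h replicate 2 and 15 of 30 without parental 96 h replicate 2. Of the 100 higher calls that were not listed as protein-coding, 71 kept their call without the libraries under 5000000 counts. Leaving out 1 library kept 13 (LB1 96 h replicate 2), 14 (LB1 0 h replicate 3), 15 (parental 96 h replicate 2), 20 (LB1 0 h replicate 2), 32 (parental 0 h replicate 1) or 38 (parental 0 h replicate 4), and 55 to 100 for each of the others. The direction of these classes was split between the lines: in parental cells the median change was -0.53, -0.48, -0.45 and -0.30 in the same order, and in LB1 0.34, 0.28, 0.25 and 0.18. Of counts outside the mitochondrial genome, antisense genes took 0.621% ± 0.0531 in parental cells at 0 h and 0.504% ± 0.0384 after 96 h (n = 4 libraries in both, SD), and in LB1 0.527% ± 0.0181 (n = 3) and 0.680% ± 0.0903 (n = 4). For lincRNAs the shares were 0.626% ± 0.0533 and 0.473% ± 0.0249 in parental cells, and 0.521% ± 0.0231 and 0.627% ± 0.0653 in LB1. For pseudogenes they were 0.465% ± 0.0430 and 0.369% ± 0.00766 in parental cells, and 0.415% ± 0.0192 and 0.516% ± 0.0709 in LB1. The 0 and 96 h libraries did not overlap in these 6 comparisons, with lower shares at 96 h in parental libraries and higher shares at 96 h in LB1 libraries. An exact two-sided permutation test gave p = 0.0286 for each of the parental comparisons, the smallest that 4 against 4 allows, and p = 0.0571 for each of the LB1 comparisons. Other noncoding types, the largest noncoding class by counts, overlapped between times in both lines. They took 2.09% ± 0.757 and 1.71% ± 0.336 in parental cells (exact permutation p = 0.457), and 2.46% ± 0.553 and 2.67% ± 0.416 in LB1 (exact permutation p = 0.571). Over these 8 tests, the adjusted p was 0.0762 for the first 6 and 0.522 and 0.571 for the last pair, so none passed after adjustment.

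**Figure D3:**
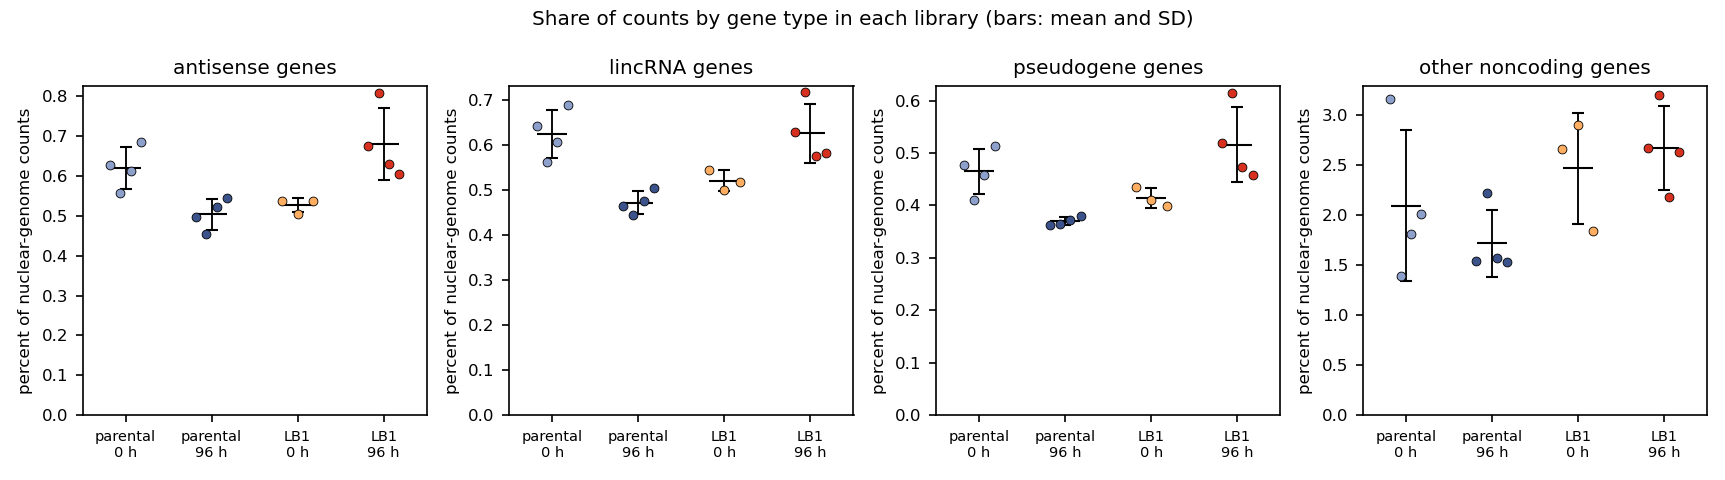
Share of counts outside the mitochondrial genome (percent, linear axis) assigned to antisense, lincRNA, pseudogene and other noncoding genes in each library, with the mean and SD of parental 0 h (n = 4), parental 96 h (n = 4), LB1 0 h (n = 3) and LB1 96 h (n = 4). In the first 3 classes the parental libraries are lower at 96 h than at 0 h and the LB1 libraries higher, with the highest value in LB1 96 h replicate 2; in the fourth the times overlap.

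Long nuclear RNAs supplied 5 of the noncoding calls, from a list of 13 that was added after values were seen. NEAT1 (ENSG00000245532.11, chromosome 11, 65422774 to 65445540, plus strand), the scaffold of paraspeckles, was at 852, 635, 729 and 942 CPM in parental cells at 0 h and 287, 208, 309.8 and 318 CPM at 96 h. In LB1, NEAT1 was at 462, 348 and 350.3 CPM and then 411, 518, 347 and 365 CPM. Every parental library at 96 h lay below all libraries of the other groups, while the LB1 groups overlapped, and the difference was 1.57 ± 0.25 (adjusted p = 0.000616). LINC-PINT, a p53-linked RNA, differed by 1.39 ± 0.24 (adjusted p = 0.00208), and PVT1, the RNA beside the MYC gene, by 1.46 ± 0.29 (adjusted p = 0.00966). PVT1 rose in LB1 (0.81) and fell in parental cells (-0.65). These 3 kept their calls in all 24 alternatives tried. KCNQ1OT1, the antisense RNA of an imprinted domain, rose in LB1 from 65.5, 35.2 and 60.6 CPM to 95.3, 144, 106 and 86.3 CPM, and its difference of 1.41 ± 0.29 (adjusted p = 0.0108) was 0.74 once the trend of counts with GC content and length was removed from each library. KCNQ1OT1 lost its call without LB1 0 h replicate 2 (log2 difference 1.23, adjusted p = 0.0524). FTX, from the X-inactivation region, differed by 1.08 ± 0.26 (adjusted p = 0.0252). FTX lost its call without parental 0 h replicates 1 and 4, parental 96 h replicate 2, LB1 0 h replicates 2 and 3 or LB1 96 h replicate 2 (log2 differences 0.89 to 1.11, adjusted p up to 0.102), and also with no library under 5000000 counts or the GC and length trend removed. MALAT1, a nuclear speckle RNA, differed by 1.16 ± 0.46 and was not called (adjusted p = 0.185). In all, 5 of 13 were called higher and 0 lower, with a median of 1.08, against 0.726% higher and 0.317% lower over all genes tested. Noncoding genes as classes were also called higher more often, at 1.43% (antisense), 1.44% (lincRNA) and 1.5% (other noncoding). Their median differences were 0.69, 0.49 and 0.77 in that order.

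The named antisense and intronic calls lay at low levels, mostly opposite or inside a protein-coding gene. IGF2BP2-AS1, opposite IGF2BP2, went from 5.12, 3.96, 6.82 and 10.9 CPM to 1.63, 0.0997, 1.07 and 1.65 CPM in parental cells. In LB1, IGF2BP2-AS1 went from 3.07, 3.32 and 1.75 CPM to 3.04, 3.89, 2.90 and 2.09 CPM. Its parental groups did not overlap and its LB1 groups did, and the difference was 2.71 ± 0.60 (adjusted p = 0.0165). SAMD4A-AS1, opposite SAMD4A, differed by 2.44 ± 0.51 (adjusted p = 0.0123), and SEMA5A-AS1, opposite SEMA5A, by 2.39 ± 0.59 (adjusted p = 0.0332); both fell in parental cells. EIPR1-IT1, inside EIPR1 on its strand, differed by 3.30 ± 0.76 (adjusted p = 0.0202), the antisense gene LINC02883 by 3.35 ± 0.87 (adjusted p = 0.0419) and the zinc finger pseudogene ZNF75CP by 4.22 ± 0.96 (adjusted p = 0.0187). LINC02883 and ZNF75CP had no count in LB1 0 h replicate 2, which allows up to 1.99 CPM there, so their fitted differences depend on few reads. IGF2BP2-AS1 lost its call without parental 0 h replicate 4, parental 96 h replicate 2, LB1 0 h replicate 3 or LB1 96 h replicate 2 (log2 differences 2.25 to 2.56, adjusted p up to 0.101). SAMD4A-AS1 lost its call without LB1 0 h replicate 3 or LB1 96 h replicate 2 (log2 differences 2.04 to 2.25, adjusted p up to 0.0771). SEMA5A-AS1 lost its call without any 1 library other than parental 0 h replicate 3, parental 96 h replicates 1, 3 and 4 or LB1 96 h replicates 3 and 4 (log2 differences 2.13 to 2.55, adjusted p up to 0.161), and also with no filter on low counts. EIPR1-IT1 lost its call without parental 0 h replicate 4, LB1 0 h replicates 2 and 3 or LB1 96 h replicate 2 (log2 differences 2.77 to 3.29, adjusted p up to 0.127). ZNF75CP lost its call without parental 96 h replicate 2, LB1 0 h replicates 1, 2 and 3 or LB1 96 h replicate 2 (log2 differences 3.73 to 4.65, adjusted p up to 0.0898). LINC02883 lost its call without any 1 library other than parental 96 h replicate 3 or LB1 96 h replicates 3 and 4 (log2 differences 3.02 to 3.60, adjusted p up to 0.133), and also with no filter on low counts. How strand was handled in counting is not given in the sources used here, so reads of a gene and of the partner it overlaps may not be separated.

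In the HOXB cluster on chromosome 17, a list added after values were seen, 3 of 12 tested genes were called higher and 0 lower, with a median of 0.23. Over all genes tested, 0.726% were called higher. HOXB4 (ENSG00000182742.6, chromosome 17, 48575507 to 48578350, minus strand) went from 46.4, 27.7, 36.6 and 46.2 CPM to 13.6, 17.9, 20.0 and 16.5 CPM in parental cells. In LB1, HOXB4 went from 29.2, 15.9 and 27.6 CPM to 27.4, 39.6, 24.7 and 20.6 CPM. The fall was in parental cells, where the groups did not overlap, and the difference was 1.33 ± 0.29 (adjusted p = 0.0127). HOXB3 differed by 0.67 ± 0.17 (adjusted p = 0.0408) and the antisense RNA HOXB-AS2 by 1.6 ± 0.35 (adjusted p = 0.0143), with parental changes of -0.58 and -1.02. These genes overlap or neighbour one another, so they are not independent. HOXB3 lost its call without any 1 library other than parental 0 h replicates 2 and 3, LB1 0 h replicate 1 or LB1 96 h replicates 3 and 4 (log2 differences 0.56 to 0.68, adjusted p up to 0.187), and also with no filter on low counts or no library under 5000000 counts. HOXB4 lost its call without LB1 0 h replicate 2 or LB1 96 h replicate 2 (log2 differences 1.13 to 1.18, adjusted p up to 0.0633). HOXB-AS2 lost its call without parental 96 h replicate 2, LB1 0 h replicate 2 or LB1 96 h replicate 2 (log2 differences 1.37 to 1.49, adjusted p up to 0.0754).

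Some promoters of genes called lower hold short sequences known from the pathways described next, and 4 are shown so that the letters can be read beside the values. In each, the 250 bases before the RefSeq start (GRCh38.p14) run 5′ to 3′ along the gene's strand, with the matched letters in capitals. The first pair shows the E-box CACGTG, the site of the core clock factors and of MYC. The second pair shows the endoplasmic reticulum stress element (ERSE), searched as CCAAT, then 9 bases, then CCACG, and its capitals run over those 9 bases. Each window is marked only for the motif of its pair. The HSP90B1 window also holds the E-box CACGTG near its start, left in lower case. These 2 of the 5 motifs searched, and HSPA5 and HSP90B1, were chosen after the values were seen.
TEF: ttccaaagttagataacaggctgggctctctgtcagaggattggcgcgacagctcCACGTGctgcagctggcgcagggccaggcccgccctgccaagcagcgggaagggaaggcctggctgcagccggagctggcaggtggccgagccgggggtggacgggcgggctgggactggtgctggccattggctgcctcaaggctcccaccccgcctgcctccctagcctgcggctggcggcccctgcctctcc
SLC7A5: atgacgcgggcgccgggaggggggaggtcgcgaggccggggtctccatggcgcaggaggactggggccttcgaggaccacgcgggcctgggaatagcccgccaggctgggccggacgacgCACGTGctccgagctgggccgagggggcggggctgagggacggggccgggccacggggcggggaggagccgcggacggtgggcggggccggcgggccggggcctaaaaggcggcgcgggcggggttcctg
HSPA5: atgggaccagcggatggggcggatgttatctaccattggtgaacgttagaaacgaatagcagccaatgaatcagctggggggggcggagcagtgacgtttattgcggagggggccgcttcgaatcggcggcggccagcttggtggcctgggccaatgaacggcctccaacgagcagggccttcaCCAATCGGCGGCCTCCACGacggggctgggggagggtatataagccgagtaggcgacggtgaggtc
HSP90B1: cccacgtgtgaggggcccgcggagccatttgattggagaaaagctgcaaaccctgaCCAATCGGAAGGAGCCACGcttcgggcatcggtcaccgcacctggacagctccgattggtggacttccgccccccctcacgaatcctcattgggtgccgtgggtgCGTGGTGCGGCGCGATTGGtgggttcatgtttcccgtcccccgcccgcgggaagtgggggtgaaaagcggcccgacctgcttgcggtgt
The windows are chr22:41367205-41367454, plus strand, for TEF; chr16:87869508-87869757, minus strand, for SLC7A5; chr9:125241344-125241593, minus strand, for HSPA5; and chr12:103930160-103930409, plus strand, for HSP90B1. Of the 224 called genes, 118 had a promoter in the RefSeq table. Searched on both strands, the E-box was present in 10 of 55 promoters of genes called lower (18.2%), in 4 of 63 of genes called higher (6.35%), in 8.48% of 12399 promoters of genes tested and in 6.49% of all 27305. The ERSE was present in 2 of the 55 (3.64%, the promoters of HSPA5 and HSP90B1), in 0 of the 63, in 0.113% of promoters of genes tested and in 0.0806% of all. The other 3 motifs searched were the antioxidant response element TGACNNNGC bound by NRF2, the ATF4 site TGATGNAA and the D-box TTATGNAA of the clock. The first was in 5 of the 55 (9.09%), in 10 of the 63 (15.9%), in 12.0% of promoters of genes tested and in 11.0% of all. The ATF4 site was in 2 of the 55 (3.64%), in 1 of the 63 (1.59%), in 1.66% of promoters of genes tested and in 3.19% of all. The D-box was in 1 of the 55 (1.82%), in 1 of the 63 (1.59%), in 1.68% of promoters of genes tested and in 3.15% of all. These matches describe the letters of the windows, and binding was not measured.

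Carriers that bring amino acids into the cell supplied 5 of the lower calls. SLC7A5 (ENSG00000103257.9, chromosome 16, 87830023 to 87869507, minus strand), which exchanges leucine and other large neutral amino acids for glutamine, was at 976, 1105, 1119 and 851 CPM in parental cells at 0 h and 1137, 1319, 1188 and 1157 CPM at 96 h. In LB1, SLC7A5 was at 836, 1097 and 999 CPM at 0 h and 415, 372, 551 and 536 CPM at 96 h. The 4 LB1 libraries at 96 h stood below the other 11, and the difference of -1.30 ± 0.27 (adjusted p = 0.0108) kept its call in all 25 alternatives. SLC1A5 (ENSG00000105281.12, chromosome 19, 46774883 to 46788594, minus strand), the main glutamine carrier, was at 433, 587 and 505 CPM in LB1 at 0 h and 198, 207, 264 and 217 CPM at 96 h. In parental cells it lay between 436 and 635 CPM at both times. The LB1 libraries at 96 h were again the lowest of the 15, with a difference of -1.17 ± 0.26 (adjusted p = 0.0165). SLC1A5 lost its call without LB1 0 h replicates 2 and 3 or LB1 96 h replicate 2 (log2 differences -1.07 to -1.17, adjusted p up to 0.0613). SLC7A11, the cystine importer, fell within LB1 from 221, 232 and 209 CPM to 111, 85.0, 87.7 and 80.7 CPM. In parental cells it was also lower at 96 h, by less and without a call. There it went from 204, 220, 174 and 186 CPM to 167, 134, 145 and 143 CPM (log2 change -0.41). The difference of responses of SLC7A11 was -0.86 ± 0.20 (adjusted p = 0.0257). SLC7A11 lost its call without parental 0 h replicates 3 and 4, parental 96 h replicate 1, LB1 0 h replicates 2 and 3 or LB1 96 h replicates 2 and 4 (log2 differences -0.71 to -0.90, adjusted p up to 0.0842), and also with library size alone or no filter on low counts.

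SLC7A2 and SLC7A8 reached the same call from the parental side. SLC7A2, a carrier of cationic amino acids, rose in parental cells from 30.6, 38.6, 33.5 and 29.5 CPM to 68.3, 53.8, 61.4 and 62.4 CPM and was at 56.7, 53.1 and 62.4 CPM and 58.2, 43.6, 52.7 and 47.5 CPM in LB1. Parental cells thus ended within or above the range that LB1 held throughout, and the difference was -1.08 ± 0.24 (adjusted p = 0.0166). SLC7A8, a relative of SLC7A5, differed by -1.02 ± 0.24 (adjusted p = 0.0213) and rose in parental cells (0.65). SLC7A2 lost its call without LB1 0 h replicate 3 or LB1 96 h replicate 2 (log2 differences -1.01 to -1.02, adjusted p up to 0.0925). SLC7A8 lost its call without parental 0 h replicate 1, LB1 0 h replicates 2 and 3 or LB1 96 h replicate 2 (log2 differences -0.95 to -1.03, adjusted p up to 0.0842). Of 21 tested amino acid transporters, a list added after values were seen, 5 were called lower and 0 higher, with a median of -0.51. Over the protein-coding genes tested, 0.488% were called lower. SLC3A2, the heavy chain that carries SLC7A5 and SLC7A11 to the membrane, differed by -0.86 ± 0.28 and was not called (adjusted p = 0.108).

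In the list of genes of the ATF4 stress response, which adapts amino acid supply to demand, 3 of 24 were called lower and 0 higher (median -0.42). Besides SLC7A5 and SLC7A11, which are also in the transporter list, this was SHMT2, the mitochondrial enzyme that turns serine into glycine. Over the protein-coding genes tested, 0.488% were called lower. The ATF4 list fell in both lines. Between 0 and 96 h, 14 of the 24 fell in LB1 and 8 in parental cells, and 0 rose in either. The median changes were -0.74 in LB1 and -0.34 in parental cells. SHMT2 (ENSG00000182199.11, chromosome 12, 57229573 to 57234935, plus strand) was at 229, 227 and 237 CPM in LB1 at 0 h and 128, 128, 147 and 148 CPM at 96 h. In parental cells it was at 230.3, 259.8, 259 and 205 CPM and 221, 258, 213 and 197 CPM. The LB1 libraries at 96 h were the 4 lowest, and the difference was -0.64 ± 0.15 (adjusted p = 0.0257). YARS1, the tyrosyl-tRNA synthetase, was the 1 call among 20 cytosolic aminoacyl-tRNA synthetases (a list added after values were seen, median -0.26), at -0.65 ± 0.15 (adjusted p = 0.0257). It went from 281, 274 and 271 CPM to 144, 129, 161 and 172 CPM in LB1. Of the 20 synthetases, 8 fell in LB1 and 5 in parental cells between 0 and 96 h, and 0 rose in either. SHMT2 lost its call without parental 0 h replicate 4, parental 96 h replicate 2, LB1 0 h replicates 2 and 3 or LB1 96 h replicates 1 and 2 (log2 differences -0.58 to -0.67, adjusted p up to 0.101), and also with library size alone or no filter on low counts. YARS1 lost its call without parental 0 h replicate 4, LB1 0 h replicates 1, 2 and 3 or LB1 96 h replicate 2 (log2 differences -0.57 to -0.66, adjusted p up to 0.0969), and also with library size alone or no filter on low counts.

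Chaperones of the endoplasmic reticulum, which fold secreted and membrane proteins, supplied another 5 lower calls. PDIA4 (ENSG00000155660.11, chromosome 7, 149003062 to 149028662, minus strand), a protein disulphide isomerase, was at 256, 283, 279 and 259 CPM in parental cells at 0 h and 367, 401, 325 and 311 CPM at 96 h. In LB1, PDIA4 was at 243, 254 and 270.1 CPM and then 151, 136, 209 and 148 CPM. Parental libraries were higher at 96 h and LB1 libraries lower, with no overlap of times in either line, and the difference was -1.05 ± 0.22 (adjusted p = 0.0123). HSPA5, the central chaperone BiP, whose promoter is printed above, was at 949, 967, 933 and 865 CPM and 1315, 1267, 1166 and 1173 CPM in parental cells. In LB1, HSPA5 was at 794, 849 and 905 CPM and 700.0, 572, 799 and 603 CPM. It rose in parental cells and overlapped between times in LB1, with a difference of -0.75 ± 0.19 (adjusted p = 0.0433). HSP90B1, the GRP94 chaperone, fell in LB1 from 623, 728 and 736 CPM to 438, 350.1, 547 and 435 CPM and differed by -0.79 ± 0.21 (adjusted p = 0.0433). HYOU1, a nucleotide exchange partner of HSPA5, differed by -1.05 ± 0.28 (adjusted p = 0.0464), and DNAJC3, a co-chaperone, by -0.90 ± 0.20 (adjusted p = 0.0135). Of 22 tested genes in this list, added after values were seen, 5 were called lower and 0 higher, with a median of -0.54. Between 0 and 96 h, 2 of the 22 fell and 0 rose in LB1, and 3 rose and 0 fell in parental cells. The median changes were -0.20 in LB1 and 0.31 in parental cells, so the parental rise was the larger part. Over the protein-coding genes tested, 0.488% were called lower. The sensors ATF6, ERN1 and EIF2AK3 and the factor XBP1 were not called, at -0.21, -0.47, 0.16 and -0.17.

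HSPA5 lost its call without any 1 library other than parental 0 h replicate 2, parental 96 h replicate 4 or LB1 96 h replicate 3 (log2 differences -0.61 to -0.79, adjusted p up to 0.159), and also with library size alone or no filter on low counts. HYOU1 lost its call without any 1 library other than parental 0 h replicate 2, parental 96 h replicate 4 or LB1 96 h replicate 3 (log2 differences -0.97 to -1.11, adjusted p up to 0.142), and also with RLE scaling, library size alone or protein-coding genes alone. HSP90B1 lost its call without any 1 library other than parental 0 h replicate 2, LB1 0 h replicate 1 or LB1 96 h replicate 3 (log2 differences -0.69 to -0.83, adjusted p up to 0.153), and also with library size alone, no filter on low counts or protein-coding genes alone. PDIA4 lost its call without LB1 0 h replicate 3 (log2 difference -1.0, adjusted p = 0.0574). DNAJC3 lost its call without LB1 0 h replicates 2 and 3 or LB1 96 h replicate 2 (log2 differences -0.83 to -0.91, adjusted p up to 0.0581). In each of these refits the difference stayed negative.

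The circadian clock in most cells is a loop in which BMAL1 and CLOCK drive PER, CRY and REV-ERB genes through E-boxes, and the products turn the drive off again. Of 21 tested clock genes, 4 were called lower and 0 higher (median -0.18), against 0.488% called lower over the protein-coding genes tested. NR1D1 (ENSG00000126368.6, chromosome 17, 40092793 to 40100589, minus strand), which encodes the repressor REV-ERBα, was at 23.4, 25.9, 30.8 and 28.8 CPM in parental cells at 0 h and 17.4, 22.4, 22.7 and 23.0 CPM at 96 h. In LB1, NR1D1 went from 35.0, 49.1 and 32.1 CPM to 10.8, 10.3, 13.9 and 16.3 CPM. The LB1 libraries were the highest of the 15 at 0 h and the lowest at 96 h, and the difference was -1.20 ± 0.25 (adjusted p = 0.0123). NR1D2, its paralog, went from 177, 159 and 185 CPM to 79.6, 63.2, 64.8 and 84.8 CPM in LB1, with a difference of -0.97 ± 0.21 (adjusted p = 0.0143). In parental cells NR1D2 went from 157, 196, 166 and 160 CPM to 146, 138, 139 and 135 CPM. The parental changes of NR1D1 and NR1D2, -0.35 and -0.28, were also falls without overlap of times, but neither was called. TEF, an output factor that binds D-boxes and whose promoter is printed above, went from 31.7, 37.8 and 39.1 CPM to 14.5, 15.8, 19.2 and 19.1 CPM in LB1 and stayed between 20.0 and 28.3 CPM in parental cells. Its 4 LB1 libraries at 96 h were the lowest of the 15, with a difference of -0.91 ± 0.23 (adjusted p = 0.038).

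PER2, a repressor of the loop, was called lower although it rose in both lines. PER2 (ENSG00000132326.13, chromosome 2, 238244044 to 238290102, minus strand) went from 19.5, 20.7, 22.8 and 17.2 CPM to 44.8, 45.5, 51.4 and 52.4 CPM in parental cells. In LB1, PER2 went from 42.1, 47.1 and 48.1 CPM to 64.1, 56.4, 65.1 and 76.3 CPM. LB1 began where parental cells ended and rose less, and the difference was -0.75 ± 0.19 (adjusted p = 0.0419). So 3 of the 4 clock calls were falls in LB1, and the fourth was a smaller rise. NR1D1 lost its call without LB1 0 h replicate 2 or LB1 96 h replicate 2 (log2 differences -1.06 to -1.11, adjusted p up to 0.0524). NR1D2 lost its call without LB1 0 h replicate 3 or LB1 96 h replicate 2 (log2 differences -0.91 to -0.92, adjusted p up to 0.0797). TEF lost its call without parental 0 h replicate 1, parental 96 h replicates 2 and 4, LB1 0 h replicates 2 and 3 or LB1 96 h replicates 1 and 2 (log2 differences -0.83 to -0.92, adjusted p up to 0.159), and also with library size alone or no filter on low counts. PER2 lost its call without any 1 library other than parental 0 h replicates 2 and 3, parental 96 h replicate 1, LB1 0 h replicate 1 or LB1 96 h replicate 4 (log2 differences -0.68 to -0.82, adjusted p up to 0.161), and also with library size alone or no filter on low counts.

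Genes of the response to electrophiles and of the aryl hydrocarbon receptor supplied 3 further lower calls, in lists that share NQO1. NQO1 (ENSG00000181019.13, chromosome 16, 69706996 to 69726668, minus strand), a quinone reductase induced by both NRF2 and the receptor, was at 324, 342, 325 and 307 CPM in parental cells at 0 h and 457, 411, 351 and 381 CPM at 96 h. In LB1, NQO1 was at 387, 409 and 422 CPM and then 277, 206, 272 and 236 CPM. All parental libraries at 96 h exceeded those at 0 h, all LB1 libraries at 96 h lay below every other library, and the difference of -1.01 ± 0.18 (adjusted p = 0.00326) kept its call in all 25 alternatives. Together with SLC7A11, NQO1 made up 2 lower and 0 higher calls among 17 NRF2 targets (median -0.44). In the receptor list of 11 genes, NQO1, ALDH3A1 and CYP1B1 were called lower and 0 higher (median -0.24). For both lists, the share called lower over the protein-coding genes tested was 0.488%. CYP1B1 (ENSG00000138061.12, chromosome 2, 38066973 to 38109902, minus strand), a direct receptor target, rose in parental cells from 40.1, 51.0, 43.4 and 46.9 CPM to 98.6, 88.7, 86.7 and 101 CPM and stood at 78.2, 83.0 and 85.4 CPM and 109, 92.9, 102 and 98.4 CPM in LB1. At 0 h the LB1 line already lay between the parental levels at 0 and 96 h, and the difference was -0.75 ± 0.19 (adjusted p = 0.0408). ALDH3A1, an aldehyde dehydrogenase, fell in LB1 (-0.57) and differed by -0.83 ± 0.21 (adjusted p = 0.039). ALDH3A1 lost its call without any 1 library other than parental 0 h replicates 2 and 4, parental 96 h replicates 1 and 4 or LB1 96 h replicates 3 and 4 (log2 differences -0.71 to -0.84, adjusted p up to 0.116), and also with RLE scaling, library size alone, no filter on low counts or protein-coding genes alone. CYP1B1 lost its call without any 1 library other than parental 0 h replicate 2, parental 96 h replicate 3 or LB1 96 h replicate 1 (log2 differences -0.65 to -0.82, adjusted p up to 0.149), and also with library size alone or no filter on low counts.

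Of 23 YAP and TEAD targets, genes that follow cell spreading and tension, 3 were called lower and 0 higher (median -0.28). Over the protein-coding genes tested, 0.488% were called lower. Between 0 and 96 h, 11 of the 23 fell and 0 rose in LB1, and 5 fell and 2 rose in parental cells. CCN2 (ENSG00000118523.6, chromosome 6, 131948176 to 131951372, minus strand), a secreted matricellular protein, went from 34.6, 34.2, 35.0 and 29.0 CPM to 29.9, 27.2, 23.7 and 25.8 CPM in parental cells. In LB1, CCN2 went from 37.4, 43.8 and 37.7 CPM to 16.4, 14.6, 17.7 and 17.2 CPM. The LB1 libraries at 96 h were the 4 lowest, and the difference was -0.93 ± 0.24 (adjusted p = 0.0452). LATS2, a kinase that restrains YAP and is itself a target, went from 68.6, 77.7 and 66.5 CPM to 42.2, 36.2, 40.3 and 51.1 CPM in LB1, with a difference of -0.76 ± 0.17 (adjusted p = 0.0187). TGFB2, a TGF-beta ligand, began in LB1 at 146, 129 and 145 CPM and came down to 97.5, 69.6, 87.9 and 79.7 CPM, nearer to the parental range of 63.5 to 81.6 CPM, with a difference of -0.85 ± 0.23 (adjusted p = 0.0481). CCN1, the other widely used YAP readout, differed by -0.76 ± 0.24 (adjusted p = 0.103). None of 28 SRF targets and contractile actin genes was called (median -0.12); the smallest p-values belonged to FLNA, a filamin, at -0.86 ± 0.25 (adjusted p = 0.0794), and FILIP1L at 1.30 ± 0.45 (adjusted p = 0.133). FLNA was called in 4 and FILIP1L in 3 of the 25 alternatives. CCN2 lost its call without any 1 library other than parental 0 h replicate 2, parental 96 h replicate 3 or LB1 96 h replicate 3 (log2 differences -0.85 to -0.99, adjusted p up to 0.13), and also with library size alone, no filter on low counts or protein-coding genes alone. LATS2 lost its call without LB1 0 h replicates 2 and 3 or LB1 96 h replicate 2 (log2 differences -0.69 to -0.80, adjusted p up to 0.0816), and also with no filter on low counts. TGFB2 lost its call without any 1 library other than parental 0 h replicate 2 or LB1 96 h replicate 1 (log2 differences -0.73 to -0.95, adjusted p up to 0.155), and also with library size alone, no filter on low counts or protein-coding genes alone.

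CLDN2, GJA3 and FOXA1, which are in none of these lists, were also called lower. CLDN2 (ENSG00000165376.12, chromosome X, 106900164 to 106930861, plus strand), a claudin that makes tight junctions permeable to cations, rose in parental cells from 25.0, 27.7, 31.2 and 26.3 CPM to 47.6, 47.1, 41.2 and 37.8 CPM and fell in LB1 from 19.4, 18.6 and 21.6 CPM to 12.2, 11.0, 16.4 and 11.8 CPM. Neither line overlapped between times, and the difference was -1.29 ± 0.23 (adjusted p = 0.00326). GJA3 (ENSG00000121743.4, chromosome 13, 20138255 to 20161052, minus strand), a connexin, was at 13.6, 15.8, 17.9 and 9.42 CPM and 20.8, 25.9, 29.1 and 24.8 CPM in parental cells. In LB1, GJA3 was at 22.5, 27.2 and 25.4 CPM and 16.3, 13.8, 18.4 and 15.5 CPM. The order of the lines was reversed between the times, with a difference of -1.42 ± 0.29 (adjusted p = 0.0109). FOXA1, a pioneer factor of endoderm named after its values were seen, rose in parental cells from 153, 194, 189 and 169 CPM to 318, 342, 387 and 355 CPM and stayed between 272 and 344 CPM in LB1, with a difference of -1.0 ± 0.18 (adjusted p = 0.00326). All 3 kept their calls in all 25 alternatives.

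DACT1, a regulator of Dishevelled in WNT signalling, had the largest lower difference of the named genes, at -1.91 ± 0.49 (adjusted p = 0.0412), and low levels. DACT1 went from 1.71, 2.81, 2.69 and 1.69 CPM to 4.25, 5.59, 3.03 and 5.42 CPM in parental cells. In LB1, DACT1 went from 2.03, 1.99 and 2.30 CPM to 0.988, 0.934, 1.14 and 1.6 CPM, again in opposite directions with no overlap of times. ZNRF3, a ubiquitin ligase that removes WNT receptors, rose in parental cells (0.56) and differed by -0.88 ± 0.22 (adjusted p = 0.0407); it was the 1 call among 16 genes of WNT feedback and intestinal stem cells (median -0.46). CDC20, the activator of the anaphase-promoting complex, fell in LB1 from 238, 240.3 and 238 CPM to 146, 145, 175 and 175 CPM and differed by -0.66 ± 0.16 (adjusted p = 0.0298), the 1 call among 32 mitotic genes (median -0.24). TMEM43, an inner nuclear membrane protein also called LUMA, rose in parental cells from 90.9, 92.4, 99.2 and 73.7 CPM to 141, 152, 124 and 120.5 CPM and was at 89.6, 103 and 97.7 CPM and 77.7, 76.3, 99.4 and 76.7 CPM in LB1. It differed by -0.81 ± 0.21 (adjusted p = 0.0453) and was the 1 call among 16 inner nuclear membrane and lamina partners (median -0.35). Beside each of these single calls, 0.488% of the protein-coding genes tested were called lower. DACT1 lost its call without any 1 library other than parental 0 h replicates 2 and 3, parental 96 h replicates 1 and 3 or LB1 96 h replicate 4 (log2 differences -1.82 to -1.97, adjusted p up to 0.152), and also with library size alone or no filter on low counts. ZNRF3 lost its call without any 1 library other than parental 0 h replicates 2 and 3, parental 96 h replicate 1, LB1 0 h replicate 1 or LB1 96 h replicates 3 and 4 (log2 differences -0.76 to -0.94, adjusted p up to 0.174), and also with RLE scaling, library size alone or protein-coding genes alone. CDC20 lost its call without parental 0 h replicate 4, parental 96 h replicates 1 and 2, LB1 0 h replicates 1, 2 and 3 or LB1 96 h replicates 1 and 2 (log2 differences -0.61 to -0.67, adjusted p up to 0.0972), and also with library size alone, no filter on low counts or the GC and length trend removed. TMEM43 lost its call without any 1 library other than parental 0 h replicates 2 and 3, parental 96 h replicate 4 or LB1 96 h replicate 3 (log2 differences -0.68 to -0.86, adjusted p up to 0.142), and also with library size alone, no filter on low counts or protein-coding genes alone.

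Other lower differences, by size, were those of ATP8B2, a phospholipid flippase, HS3ST3B1, a heparan sulphate sulphotransferase, IL27RA, a cytokine receptor subunit, and ARID3A, a DNA-binding factor. ATP8B2 fell in LB1 from 8.68, 8.63 and 8.47 CPM to 4.03, 4.67, 4.08 and 4.69 CPM and differed by -1.50 ± 0.34 (adjusted p = 0.0181). ARID3A fell in LB1 from 55.1, 71.7 and 72.7 CPM to 24.5, 28.0, 31.0 and 36.6 CPM and differed by -1.25 ± 0.30 (adjusted p = 0.0306). IL27RA rose in parental cells from 11.9, 13.3, 14.2 and 9.67 CPM to 25.1, 26.9, 24.4 and 21.4 CPM and differed by -1.32 ± 0.28 (adjusted p = 0.0133). So did HS3ST3B1 (parental change 0.99), with a difference of -1.39 ± 0.35 (adjusted p = 0.0338). The first pair were falls in LB1 and the second pair rises in parental cells. ATP8B2 lost its call without parental 96 h replicate 2 or LB1 0 h replicate 3 (log2 differences -1.43 to -1.51, adjusted p up to 0.0716). ARID3A lost its call without parental 0 h replicate 4, parental 96 h replicate 2, LB1 0 h replicates 2 and 3 or LB1 96 h replicates 1 and 2 (log2 differences -1.15 to -1.22, adjusted p up to 0.124). HS3ST3B1 lost its call without parental 0 h replicates 2, 3 and 4, parental 96 h replicate 4, LB1 0 h replicates 2 and 3 or LB1 96 h replicates 2 and 4 (log2 differences -1.18 to -1.39, adjusted p up to 0.187), and also with no filter on low counts or the compared groups alone. IL27RA lost its call without LB1 0 h replicate 3 (log2 difference -1.08, adjusted p = 0.123).

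Several groups linked to the lamina or to growth held no call, which does not show that they responded alike. Among 6 genes of the LINC complex, which couples the lamina to the cytoskeleton, the smallest p-values were those of SYNE2 at 0.86 ± 0.25 (adjusted p = 0.0691) and SYNE4 at 1.21 ± 0.56 (adjusted p = 0.262), both nesprins (median 0.10). Among 21 heterochromatin writers and readers (median -0.16) they were those of the HP1 genes CBX5 at -0.67 ± 0.22 (adjusted p = 0.121) and CBX1 at -0.48 ± 0.20 (adjusted p = 0.202). Among 16 integrin and focal adhesion genes (median -0.12) they were ITGB5 at -0.74 ± 0.24 (adjusted p = 0.111) and talin TLN1 at -0.63 ± 0.23 (adjusted p = 0.163). No member of these groups was called, but in the 25 alternatives SYNE2 was called in 7, CBX5 in 4, ITGB5 in 3 and TLN1 in 3.

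The same held for cell cycle, stress and metabolic lists. Among 35 interferon-stimulated genes, HERC5 reached -1.0 ± 0.27 (adjusted p = 0.0531) and DTX3L -0.56 ± 0.18 (adjusted p = 0.109). Among 22 p53 targets (median -0.21), GDF15 reached -0.83 ± 0.31 (adjusted p = 0.163) and TIGAR -0.75 ± 0.27 (adjusted p = 0.156). Neither the interferon nor the p53 list held a call. Among 33 replication genes (median -0.18), MCM2 reached -0.68 ± 0.21 (adjusted p = 0.0995) and MCM7 -0.39 ± 0.18 (adjusted p = 0.262). Among 24 genes of cholesterol synthesis and uptake (median 0.07), HSD17B7 reached 0.47 ± 0.19 (adjusted p = 0.209) and ACAT2 0.30 ± 0.19 (adjusted p = 0.444). Among 18 cytokines and chemokines (median -0.11), IL32 reached 2.46 ± 0.99 (adjusted p = 0.195) and NFKBIA -0.50 ± 0.20 (adjusted p = 0.199). In the 25 alternatives HERC5 was called in 5, DTX3L in 4, GDF15, TIGAR and MCM2 in 2 each and HSD17B7 in 1.

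Among 76 cytosolic ribosomal protein genes (median -0.05), RPS10 reached 0.73 ± 0.28 (adjusted p = 0.181) and RPS29 -0.52 ± 0.22 (adjusted p = 0.204). The 13 transcripts of the mitochondrial genome had a median of 0.45, with MT-ATP8 at 0.75 ± 0.49 (adjusted p = 0.448) and MT-ND1 at 0.57 ± 0.43 (adjusted p = 0.52). Of 11 tested colon epithelial markers (median 0.00), CDX2, the intestinal homeobox factor, reached -0.64 ± 0.19 (adjusted p = 0.0776) and EPCAM -0.45 ± 0.17 (adjusted p = 0.164). CDX2 rose in both lines (1.24 in parental cells, 0.60 in LB1) without a call in the difference, which was called in 4 of the 25 alternatives. The tested fibroblast markers were PDGFRB (-0.90 ± 1.01, adjusted p = 0.68) and COL1A1 (0.72 ± 0.84, adjusted p = 0.697), with a median of -0.09, and the tested blood and endothelial markers VWF (-0.71 ± 0.43, adjusted p = 0.407) and PECAM1 (1.25 ± 1.57, adjusted p = 0.72), with a median of 0.27. None was called, and those 4 genes were at low levels.

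**Figure D4:**
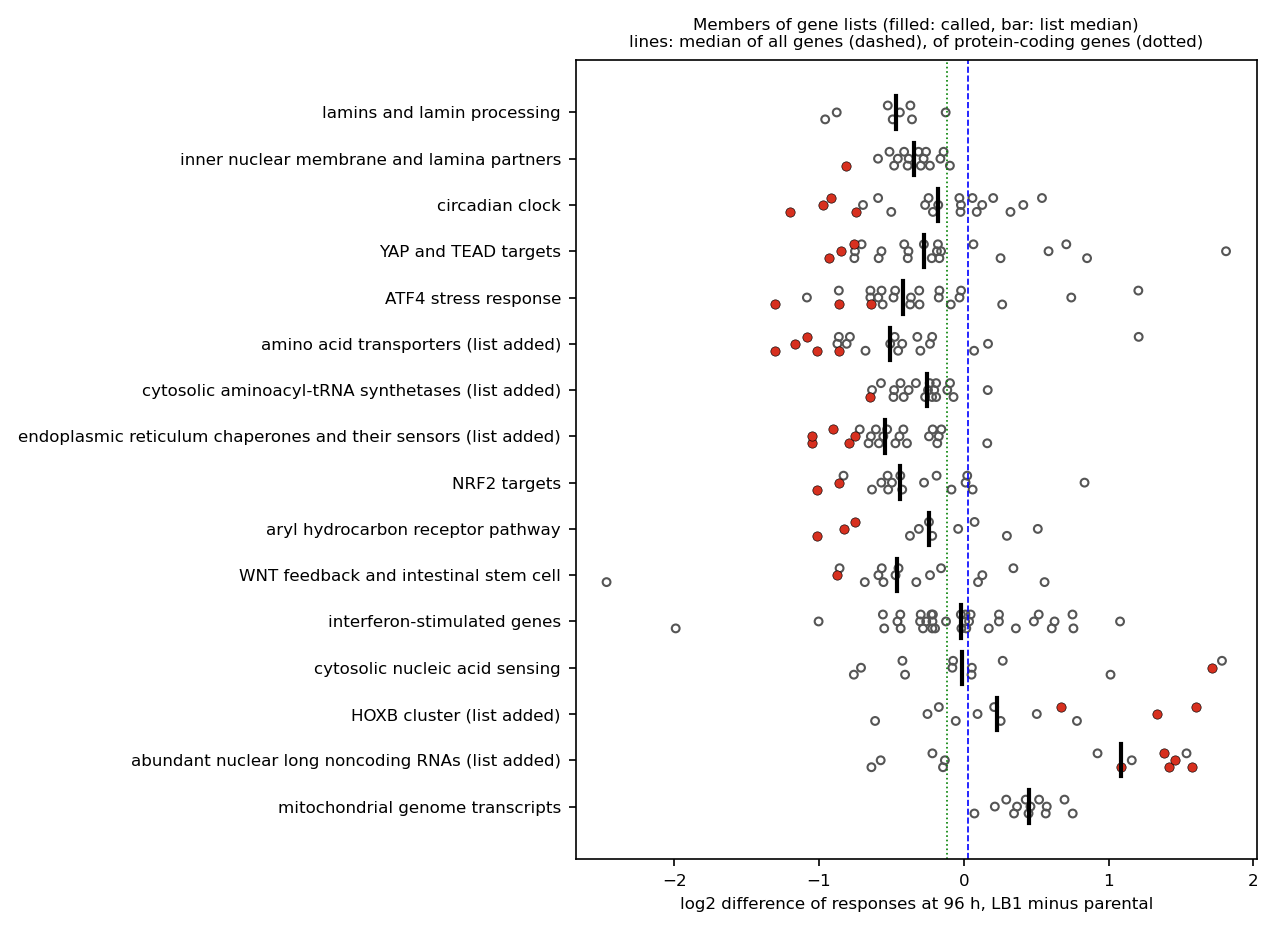
Log2 difference of responses at 96 h (LB1 minus parental, x axis) for each tested member of 16 gene lists; filled points were called, the short bar is the list's median and the blue dashed line the median of all 21484 genes, 0.03, and the green dotted line that of protein-coding genes, -0.12. Called points of the transporter, chaperone, ATF4, NRF2 and clock lists lie left of 0 and those of the nuclear noncoding RNA and HOXB lists right of 0.

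The LB1 response was also set against the 96 h responses of the LAC and LB2 lines, which share auxin and a tag but not the lamin removed. It differed from the LAC response in 216 genes (1.01%) and from the LB2 response in 26 (0.121%), contrasts that share the LB1 libraries with the comparison above. The 216 were 69 without LB1 0 h replicate 3 and 720 without LAC 0 h replicate 2. The 26 were 14 without LB2 96 h replicate 2 and 74 without LB2 0 h replicate 1. Among the 224 calls, 27 also differed from LAC (6 higher, 21 lower) and 9 from LB2 (1 higher, 8 lower), and the test of the difference was not passed against either line for most. In 6 genes the LB1 response stood apart from the parental, LAC and LB2 responses alike, in the same direction. They were TFF3 (1.33 ± 0.31 against LAC, adjusted p = 0.0203; 1.85 ± 0.32 against LB2, adjusted p = 0.00254), NR1D1 (-1.24 and -1.43), TEF (-1.32 and -1.11), NQO1 (-1.73 and -1.08), DACT1 (-2.70 and -3.31) and RASSF9. RASSF9, a RAS-association protein of recycling endosomes named after its values were seen, fell in parental cells from 11.1, 14.6, 9.86 and 13.0 CPM to 5.97, 6.98, 5.71 and 5.97 CPM and in LB1 from 11.9, 9.96 and 10.0 CPM to 3.34, 1.87, 2.79 and 2.19 CPM. Its LB1 change was lower than that of parental cells (-1.09 ± 0.27, adjusted p = 0.0319), of LAC (-2.19 ± 0.26, adjusted p = 2.36e-07) and of LB2 (-1.72 ± 0.26, adjusted p = 0.00037). RASSF9 lost its call without parental 0 h replicates 1 and 3, parental 96 h replicate 2, LB1 0 h replicates 1, 2 and 3 or LB1 96 h replicates 2 and 4 (log2 differences -0.94 to -1.16, adjusted p up to 0.116), and also with library size alone or no filter on low counts.

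Against LAC alone, calls included SLC7A11 (-2.09 ± 0.20, adjusted p = 2.87e-09), FOSB (2.50 ± 0.43, adjusted p = 0.000517), STING1 (1.84 ± 0.36, adjusted p = 0.00348) and AGR2 (-1.61 ± 0.26, adjusted p = 0.000322). Against LB2 alone they included ALDH3A1 (-1.15 ± 0.22, adjusted p = 0.00606) and PER2 (-1.14 ± 0.20, adjusted p = 0.00295). For the groups with the most calls, no difference between tagged lines was called in several leading members. SLC7A5 differed from LAC by -0.47 ± 0.27 (adjusted p = 0.447) and from LB2 by -0.75 ± 0.28 (adjusted p = 0.462). NEAT1 differed from LAC by 0.00 ± 0.24 (adjusted p = 1) and from LB2 by 0.29 ± 0.25 (adjusted p = 0.87), and HSPA5 by -0.36 ± 0.19 (adjusted p = 0.434) and -0.17 ± 0.20 (adjusted p = 0.911). An adjusted p over the threshold does not show that the tagged lines responded alike.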

How the data were processed

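The authors deposited raw counts per gene for 46 libraries, counted with featureCounts 1.6.4 per the file headers, from total RNA depleted of ribosomal RNA (a stranded kit, per the labels' protocols). The submitters' processing notes name STAR 2.7.10a, SAMtools 1.10, deepTools 3.4.5, featureCounts 1.6.4 and DESeq2 1.40.2, and the build GRCh38. The strand setting, the treatment of multi-mapping reads and the annotation release are not given in the sources used here. All 46 count columns matched a sample by name (0 unmatched), and 1 gene broken over 3 lines was left out. Groups and replicate numbers came from the labels. Gene types came from GENCODE 29 (92.93% of genes found), and symbols were present for 67.41% of the 62756 genes.

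Genes passing edgeR's filterByExpr (21484) were fitted in 1 model over all 46 libraries with 1 coefficient per group, TMM scaling and edgeR's quasi-likelihood test (edgeR 4.0.16, R 4.3.3, two-sided, Benjamini-Hochberg over all genes tested, called at an adjusted p under 0.05). CPM values, marker levels and limits of a count of 0 are scaled by TMM. Log2 differences are given with their standard error. The 15 compared libraries held 1452968 to 19352004 counts; 0 counts allow up to 3, and this limit covers counting error only. No pair of replicates agreed within sampling noise (lowest chi-square per degree of freedom 4.03). Replicate numbers showed no general pairing of the libraries.

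Named genes were LMNA, LMNB1, LMNB2 and TMPO, the 10 highest and 10 lowest differences among called genes with a symbol, a mean of at least 1 CPM and replicates that do not overlap between times in at least 1 line, and in each gene list up to 4 called members, or the 2 with the smallest p. Genes outside this rule are said to be so, or come from the 5 added lists; CCN1, MALAT1, SLC3A2 and the chaperone sensors, none of them called, were likewise picked after values were seen. The comparison, its members and all gene lists were chosen with earlier results of these data known. A few list members are not reported here and are left out of their lists' counts. Lists are described by counts and medians without a set test. Alternatives were RLE scaling, library size, no filter, DESeq2 1.42.0, limma 3.58.1 voom with sample weights, the compared groups alone, a replicate block, no libraries under 5000000 counts, removal of GC and length trends, protein-coding genes only (added later) and leaving out each library. Scripts were tested on simulated data. Promoter letters came from RefSeq (GRCh38.p14).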

Additional observations from a re-analysis of the deposited data

Results flagged for a closer look

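In 13 of 282 groups of 4 libraries (4.61%), over the named genes and the class shares, 1 library stood far from the other 3 by Dixon's test at 95%; chance flags about 1 in 20 groups. Parental 96 h replicate 2 was the highest of its group for LMNA (758 CPM), LMNB1 (206 CPM), GDF15 (364 CPM), CDX2 (248 CPM) and HYOU1 (442 CPM), and for the share of other noncoding types (2.22%). Parental 96 h replicate 4 was the highest for ZNF75CP (1.01 CPM) and parental 96 h replicate 1 the lowest for NR1D1 (17.4 CPM). LB1 96 h replicate 2 was the highest for SAMD4A-AS1 (5.76 CPM) and LB1 96 h replicate 3 for TMEM43 (99.4 CPM). At 0 h, parental replicate 4 was the lowest for CCN2 (29.0 CPM), parental replicate 2 the highest for TIGAR (35.5 CPM) and parental replicate 1 the highest for NFKBIA (52.6 CPM).

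The LB1 and parental responses at 96 h differed, by the test of the difference itself (edgeR's quasi-likelihood test), in each of the named calls. On the log2 scale, the higher differences were those of ZNF75CP (4.22), LINC02883 (3.35), EIPR1-IT1 (3.30), GPR21 (3.10), C9orf131 (2.72), IGF2BP2-AS1 (2.71), TGM2 (2.55), PNPLA3 (2.45), SAMD4A-AS1 (2.44), SEMA5A-AS1 (2.39), TFF3 (1.82), FOSB (1.80), STING1 (1.72), HOXB-AS2 (1.6), NEAT1 (1.57), PVT1 (1.46), KCNQ1OT1 (1.41), LINC-PINT (1.39), HOXB4 (1.33), SEMA5A (1.11), FTX (1.08) and HOXB3 (0.67). The lower differences were those of DACT1 (-1.91), ATP8B2 (-1.50), GJA3 (-1.42), HS3ST3B1 (-1.39), IL27RA (-1.32), SLC7A5 (-1.30), CLDN2 (-1.29), ARID3A (-1.25), NR1D1 (-1.20), SLC1A5 (-1.17), RASSF9 (-1.09), AGR2 (-1.09), SLC7A2 (-1.08), HYOU1 (-1.05), PDIA4 (-1.05), SLC7A8 (-1.02), NQO1 (-1.01), FOXA1 (-1.0), NR1D2 (-0.97), CCN2 (-0.93), TEF (-0.91), DNAJC3 (-0.90), ZNRF3 (-0.88), SLC7A11 (-0.86), TGFB2 (-0.85), ALDH3A1 (-0.83), TMEM43 (-0.81), HSP90B1 (-0.79), LATS2 (-0.76), CYP1B1 (-0.75), HSPA5 (-0.75), PER2 (-0.75), CDC20 (-0.66), YARS1 (-0.65) and SHMT2 (-0.64).

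The LB1 response at 96 h also differed, by the same test, from the LAC response in DACT1 (-2.70), RASSF9 (-2.19), SLC7A11 (-2.09), NQO1 (-1.73), AGR2 (-1.61), TEF (-1.32), NR1D2 (-1.28), NR1D1 (-1.24), GJA3 (-1.09), TGFB2 (-1.02), CLDN2 (-1.0), DNAJC3 (-0.76), TFF3 (1.33), STING1 (1.84), FOSB (2.50) and C9orf131 (2.63) and from the LB2 response in DACT1 (-3.31), RASSF9 (-1.72), NR1D1 (-1.43), ALDH3A1 (-1.15), PER2 (-1.14), TEF (-1.11), NQO1 (-1.08) and TFF3 (1.85), on the log2 scale. These contrasts share the LB1 libraries, so they are not separate evidence on that line.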

How the results depend on the processing

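The 224 calls of the LB1 response beyond the parental response at 96 h were 305 with RLE scaling and 178 with no filter on low counts. They were 365 with library size alone, 478 with DESeq2, 1128 with limma's voom, 370 without libraries under 5000000 counts, 773 with the GC and length trend removed, 782 in a fit of the compared groups alone and 132 over protein-coding genes only, the last an alternative chosen after seeing the data. No call changed sign in any of these, and DESeq2 kept 220 and voom 221 of the 224. Leaving out 1 library gave 41 to 356. The 156 higher calls were 245 (RLE), 331 (library size), 380 (DESeq2), 537 (voom), 443 (GC and length), 386 (compared groups) and 82 (protein-coding), and 27 to 292 without 1 library. The 68 lower calls were 34 (library size), 591 (voom), 221 (without libraries under 5000000), 330 (GC and length) and 396 (compared groups), and 14 to 121 without 1 library.

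Counts of the related comparisons moved as well. LB1 at 96 h against 0 h: 1619 with voom, 1103 without libraries under 5000000 counts, 1588 with GC and length, 1442 with compared groups, 342 to 597 without 1 library. Parental at 96 h against 0 h: 3345, 2613 and 2931 in the first 3 of these settings, 1004 to 1748 without 1 library. LB1 against parental at 0 h: 1551 (voom), 1480 (GC and length), 1358 (compared groups), 506 to 756 without 1 library. At 96 h: 5567 (voom), 5870 (without libraries under 5000000), 2225 to 3542 without 1 library. The 16 h difference: 27 with no filter, 30 with DESeq2, 35 with voom, 21 without libraries under 5000000, 49 with GC and length, 11 with protein-coding genes, 37 with compared groups, 1 to 9 without 1 library. LB1 against LAC: 515 (DESeq2), 1441 (voom), 516 (GC and length), 385 (protein-coding), 68 (compared groups), 69 to 720 without 1 library. LB1 against LB2: 48 (no filter), 81 (DESeq2), 517 (voom), 81 (without libraries under 5000000), 152 (GC and length), 8 (compared groups), 14 to 74 without 1 library. The cause of these shifts was not tested.

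With the replicate number as a block, the difference at 96 h had 167 calls, 164 of them shared with the 224 (65 of the 100 higher calls not listed as protein-coding), and the 16 h difference 13. Correlations of same-numbered libraries ran from -0.52 to 0.49 over 21 pairs, with a median of 0.02, so no general pairing by number was seen. Whether some of these pairs shared a batch was not tested. Of the 57 named calls, 7 were lost under the block (LINC02883, SEMA5A-AS1, CCN2, TGFB2, ZNRF3, HSPA5 and HYOU1), 0 with DESeq2 or voom, 18 with library size alone, 20 with no filter, 42 without LB1 0 h replicate 3 and 41 without LB1 96 h replicate 2. The uncalled COL1A1, at 0.72, ranged from -0.025 (without LB1 96 h replicate 2) to 1.06 (without LB1 96 h replicate 1). LB1 0 h has 3 libraries, the shallowest with 1452968 counts, which limits what can be seen of genes under about 1.99 CPM there.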
